A study of Mus musculus with 6 samples.

Results

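The 42 genes described here carry long-chain fatty acids from the blood into the muscle fibre, store and release them as lipid droplets, pass them into the mitochondrion and break them down by beta-oxidation. They were chosen by gene symbol from knowledge of the pathway, with earlier results of these data known, and all 42 were found among the 49315 genes of the count tables by their Ensembl identifiers. All 42 also passed the filter on low counts, among 16650 genes tested. The series profiled RNA of the gastrocnemius, the large muscle of the calf, by sequencing in mice at 3 months of age. The 3 libraries labelled mKO come from mice with a muscle-specific knockout of Hnrnpu, and the 3 libraries labelled WT from wild-type mice. Both groups have the strain entry mixed C57BL/6 129. Hnrnpu encodes hnRNP U, a protein that binds RNA and chromatin in the nucleus, and the study's title asks how it governs expression and splicing in skeletal muscle. The promoter that drives the deletion, the deleted exons and any pooling of animals are not stated in what was at hand. The 3 replicates of a group are numbered without naming animals, and a p-value here is set against the spread of these libraries, which may be technical.

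Muscle takes up fatty acids that lipoprotein lipase frees from circulating triglyceride, binds them to small cytosolic carrier proteins and activates them to acyl-CoA. The carnitine shuttle, which malonyl-CoA inhibits at its first enzyme, moves the acyl groups across the mitochondrial membranes. Each turn of beta-oxidation then shortens the chain by the action of a dehydrogenase, a hydratase, a second dehydrogenase and a thiolase, and the flavoproteins of electron transfer hand the electrons on to the respiratory chain. Oxidative fibres and the heart express these genes strongly, and nuclear receptors of the PPAR and ERR families are known activators of many of them.

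The libraries held between 32108684 and 42344238 counts. Genes of the mature muscle fibre were among the most abundant in both groups, with a summed level of 57930 to 67100 CPM (counts per 1000000 counts of a library, scaled with TMM factors) over 10 markers in mKO libraries and 136600 to 153300 CPM in WT libraries, and the muscle label is thus borne out by its markers. Hnrnpu itself had 209, 210.4 and 205 CPM in mKO libraries, against 233, 235 and 247 CPM in WT libraries (log2 fold change -0.20, edgeR adjusted p = 0.147). When libraries were scaled by their total counts instead, its direction turned (log2 0.27, edgeR adjusted p = 0.0402). Such a count covers all exons together and cannot show that some are missing, so it does not check the labels. Directions below are those of the libraries as labelled. The scaling matters for every fold change that follows. Scaling by library totals shifted the middle log2 value over all genes by 0.465 upward, and then 87.9% of all calls were higher in mKO against 49.0% with TMM factors. WT replicate 2 stood apart for these genes. It had the highest value of the 3 WT libraries for 32 of the 42 genes (76.2%), against 36.9% of all genes tested. Its summed level of 10 oxidative fibre markers was 12070 CPM, against 8323 and 7787 CPM in WT replicates 1 and 3. Mb (5979 CPM) and Myh2 (5423 CPM) made up most of that sum. Of these markers only Mb, Myh2 and Myl3 were highest in WT replicate 2, and the others were highest in WT replicate 1. Some mature fibre markers, such as Acta1 and Myh1, were highest in WT replicate 2 too, and others, such as Ckm, were not.

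Most of the pathway was lower in mKO muscle, and the few rises fell on specific genes. Of the 42 genes, 31 were lower and 5 were higher in mKO libraries at an adjusted p under 0.05 by edgeR's quasi-likelihood test. Over all genes tested, 18.9% were called lower and 18.2% higher. The median log2 fold change was -0.79 over the 42 genes and 0.02 over all genes. In either direction 37.0% of all genes were called, and 49.3% had groups without overlap (24% lower and 25.3% higher in mKO). Among the members, the groups of 31 lower and 5 higher genes did not overlap. The sets are not the same, because Acot2 was called with overlapping groups and Acsl1 did not overlap and was not called. The 5 genes called higher were Angptl4, Plin2, Pnpla2, Cpt1a and Ucp2, and the 6 not called were Slc27a4, Acsl1, Acsl3, Plin4, Lipe and Acacb. With library totals 19 genes were lower and 7 higher, where 6.75% of all genes tested were called lower and 49% higher. The lower genes no longer called were Fabp4, Acot1, Acot2, Mgll, Cpt1b, Cpt2, Crat, Acadl, Acadvl, Echs1, Etfa and Ucp3, with edgeR adjusted p from 0.0544 to 0.95. The 5 rises stayed above the threshold there, and Slc27a4 (log2 0.63, edgeR adjusted p = 0.0104) and Lipe (log2 0.51, edgeR adjusted p = 0.0212) joined them.

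**Figure D1:**
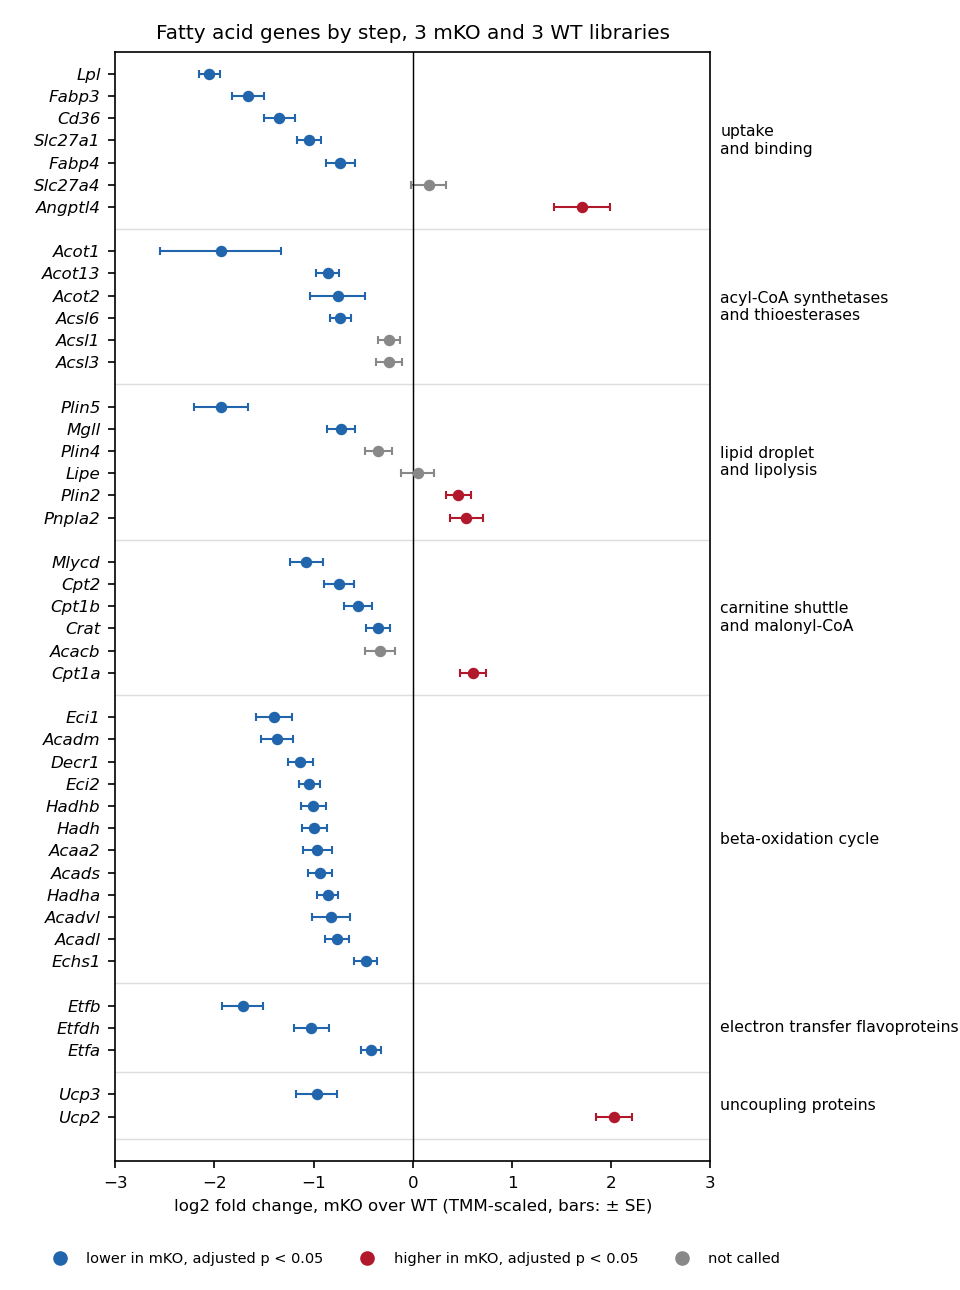
Log2 fold change, mKO over WT, of the 42 fatty acid genes grouped by step, with TMM scaling; points are edgeR estimates from 3 mKO and 3 WT libraries and bars are ± SE. All 12 genes of the beta-oxidation cycle lie left of 0, and the 5 genes called higher lie in 4 other steps.

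Summed over genes, uptake and binding had the lowest level relative to WT among the 7 steps, at 32.9% of WT. Lpl, Fabp3 and Cd36 made up most of that sum. Of 7 uptake and binding genes, 5 were lower and 1 was higher, with a median log2 fold change of -1.05. Lpl encodes lipoprotein lipase, which frees fatty acids at the capillary wall, and lies on chromosome 8 from 68880491 to 68907448 (GRCm38). It had 194, 190.5 and 185 CPM in mKO libraries, against 759, 794 and 809 CPM in WT libraries. All mKO values sat far below all WT values, with little spread within either group, and the fall was 4.15-fold (log2 -2.05, SE 0.11, edgeR adjusted p = 1.18e-07). Angptl4, a secreted inhibitor of that lipase, moved the opposite way. It had 7.32, 7.52 and 8.83 CPM in mKO libraries, against 1.5, 1.84 and 3.83 CPM in WT libraries, a 3.27-fold rise (log2 1.71, SE 0.28, edgeR adjusted p = 0.00051). The mKO and WT values of Angptl4 did not overlap, and WT replicate 3 was the highest of the WT libraries. Within each library the ratio of Angptl4 to Lpl per exon length was 0.120, 0.126 and 0.153 in mKO and 0.00631, 0.00738 and 0.0151 in WT. A ratio of this kind does not depend on how libraries are scaled.

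Of the 5 carrier and transporter genes, 4 were lower and 1, Slc27a4, was not called. Fabp3, the heart and muscle fatty acid binding protein, was the most abundant of the 42 genes per exon length in both groups. It had 379, 249.9 and 289.8 CPM in mKO libraries, against 836, 952 and 1115 CPM in WT libraries (3.16-fold lower, log2 -1.66, SE 0.16, edgeR adjusted p = 9.20e-06). Cd36, the fatty acid translocase of the surface membrane, had 303, 199 and 236 CPM in mKO libraries, against 565, 595 and 716 CPM in WT libraries, and was singled out after its values were seen (log2 -1.35, SE 0.16). For both genes mKO replicate 1 was the highest mKO library and still lay below every WT library. The transport protein gene Slc27a1 was 2.06-fold lower (30.3 ± 1.96 CPM in mKO and 62.7 ± 8.65 CPM in WT, SD, n = 3 each). Its relative Slc27a4 had 8.86, 6.87 and 7.56 CPM in mKO libraries, against 6.21, 8.52 and 6.10 CPM in WT libraries, and the groups overlapped (log2 0.16, SE 0.18, edgeR adjusted p = 0.511). Slc27a4 thus made up more of the pair: its ratio to Slc27a1 per exon length was 0.409, 0.280 and 0.334 in mKO libraries, against 0.138, 0.156 and 0.144 in WT libraries.

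Several uptake genes are also expressed by the endothelium of muscle capillaries, by adipocytes and by macrophages. Fabp4, a carrier of adipocytes and capillary endothelium, had 44.9, 41.4 and 46.5 CPM in mKO libraries, against 62.9, 91.5 and 65.5 CPM in WT libraries (log2 -0.73, SE 0.14, edgeR adjusted p = 0.00155). All 10 endothelial markers were called lower, with summed levels of 197 to 218 CPM in mKO libraries and 325 to 423 CPM in WT libraries (57.0% of WT). Of 10 white adipocyte markers, 1 was higher and 1 lower, and their sums overlapped, with 64.2 to 123.5 CPM in mKO libraries and 58.3 to 105.7 CPM in WT libraries. All 10 macrophage markers were called higher, with sums of 637 to 1058 CPM in mKO libraries and 274 to 337 CPM in WT libraries. None of the markers of these 3 lists was at 0 in all libraries. Their part in the results was not tested, and in RNA of whole muscle fewer cells of a type and less RNA per cell cannot be told apart.

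**Figure D2:**
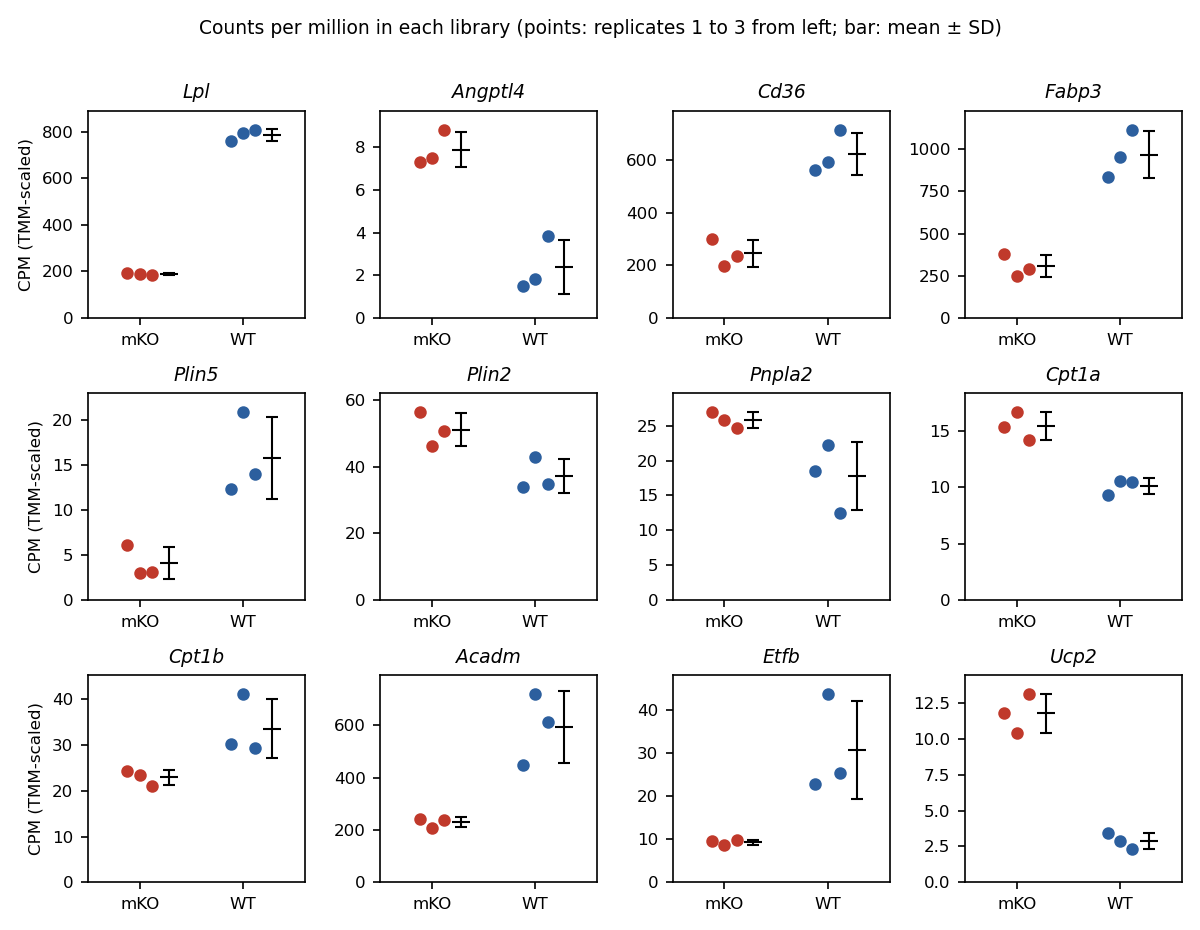
CPM (TMM-scaled, vertical axes from 0) of 12 of the genes in each library, mKO on the left and WT on the right of each panel; points are replicates 1 to 3 and bars are mean ± SD (n = 3). Lpl, Cd36, Fabp3, Plin5, Acadm, Etfb and Cpt1b are lower in every mKO library, and Angptl4, Plin2, Pnpla2, Cpt1a and Ucp2 higher.

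Of 6 genes that activate fatty acids to acyl-CoA or undo that step, 4 were lower, 2 were not called and none was higher (median log2 fold change -0.75). Acsl1, the main long-chain acyl-CoA synthetase of muscle, had 264, 246 and 228 CPM in mKO libraries, against 279.9, 320 and 273 CPM in WT libraries. Every mKO value lay below every WT value, but the difference was not called (log2 -0.24, SE 0.11, edgeR adjusted p = 0.114). Acsl3, a synthetase of the endoplasmic reticulum and lipid droplets, had 34.9, 42.7 and 48.9 CPM in mKO libraries, against 48.2, 46.6 and 54.3 CPM in WT libraries, with overlap (edgeR adjusted p = 0.175). Both synthetases had positive log2 values with library totals (0.225 and 0.22), again not called. Acsl6 was lower (25.3 ± 1.56 CPM in mKO and 42 ± 2.49 CPM in WT, SD, n = 3 each; log2 -0.73, SE 0.11).

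Acot13, a thioesterase of mitochondria, was the most abundant of this step per exon length and had 90.4, 72.8 and 79.8 CPM in mKO libraries, against 138, 153 and 149 CPM in WT libraries (log2 -0.86, SE 0.12, edgeR adjusted p = 0.000109). Acot1 and Acot2, which encode a cytosolic and a mitochondrial thioesterase, lie 15628 bases apart on chromosome 12 and are close copies, so the counting could have split reads between them. Acot1 had only 10, 2 and 4 counts in mKO libraries, against 11, 24 and 13 counts in WT libraries (log2 -1.93, SE 0.61, edgeR adjusted p = 0.0251). Acot2 had 9.25, 6.76 and 4.94 CPM in mKO libraries, against 10.4, 17.4 and 7.75 CPM in WT libraries, and mKO replicate 1 lay above WT replicate 3 (log2 -0.76, SE 0.28, edgeR adjusted p = 0.0476). Both calls rested on single libraries. Without WT replicate 2, mKO replicate 2 or mKO replicate 3, the edgeR adjusted p was 0.117, 0.103 and 0.0851 for Acot1, and 0.25, 0.113 and 0.172 for Acot2, whose log2 change was -0.37 without WT replicate 2.

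Lipid droplet genes went in opposite directions. Of 6 genes, 2 were lower and 2 were higher, with a median log2 fold change of -0.15 (-0.05 without WT replicate 2). Plin5, the coat protein that binds droplets to mitochondria in oxidative tissue, had 6.15, 3.05 and 3.1 CPM in mKO libraries, against 12.3, 20.8 and 14.0 CPM in WT libraries, with no overlap (3.82-fold lower, log2 -1.93, SE 0.27, edgeR adjusted p = 0.000146). Plin2, the coat protein found on droplets of most cells, had 56.4, 46.3 and 50.7 CPM in mKO libraries, against 33.9, 43.0 and 34.8 CPM in WT libraries (log2 0.46, SE 0.12, edgeR adjusted p = 0.012). Every mKO value of Plin2 lay above every WT value, though mKO replicate 2 and WT replicate 2 were close. Plin2 outnumbered Plin5 per exon length by ratios of 5.45, 9.01 and 9.71 in mKO libraries, against 1.64, 1.23 and 1.48 in WT libraries. Plin2 is also strongly expressed by lipid-laden macrophages. The macrophage markers listed, which are not particular to lipid-laden cells, were higher in the same libraries, and their part in this rise was not tested. The call for Plin2 ended without WT replicate 1 (edgeR adjusted p = 0.0567), WT replicate 3 (0.0544) or mKO replicate 1 (0.0547).

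Plin4, a droplet coat gene of muscle and fat that lies 1797 bases from Plin5 on chromosome 17, did not follow its neighbour past the threshold. It had 200.5, 172 and 188 CPM in mKO libraries, against 196, 288 and 229 CPM in WT libraries (log2 -0.35, SE 0.14, edgeR adjusted p = 0.0714). The groups overlapped through WT replicate 1, without which it was called (log2 -0.47, edgeR adjusted p = 0.0215), as it was by DESeq2 (adjusted p = 0.0436). The lipases that act on the droplet in turn were uneven. Pnpla2, adipose triglyceride lipase, which removes the first fatty acid, had 27.0, 25.8 and 24.6 CPM in mKO libraries, against 18.6, 22.2 and 12.5 CPM in WT libraries (log2 0.54, SE 0.17, edgeR adjusted p = 0.0253). Lipe, hormone-sensitive lipase, the next in the sequence, had 5.71, 7.27 and 7.26 CPM in mKO libraries, against 7.05, 6.93 and 5.59 CPM in WT libraries, with overlap (log2 0.05, SE 0.17, edgeR adjusted p = 0.847). Mgll, monoglyceride lipase, which releases the last fatty acid, was lower (15.8 ± 1.74 CPM in mKO and 26 ± 4 CPM in WT, SD, n = 3 each; log2 -0.72, SE 0.14). The call for Pnpla2 ended without WT replicate 3 (log2 0.34, edgeR adjusted p = 0.0749), mKO replicate 1 (0.0813), mKO replicate 2 (0.0576) or mKO replicate 3 (0.0521).

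Of 6 genes of the carnitine shuttle and of malonyl-CoA, 4 were lower and 1 was higher, with a median log2 fold change of -0.45. With library totals 1 was lower and 1 higher, and the median was 0.015. Cpt1b, the muscle form of carnitine palmitoyltransferase 1, had 24.2, 23.4 and 21 CPM in mKO libraries, against 30.2, 41.0 and 29.3 CPM in WT libraries (log2 -0.55, SE 0.14, edgeR adjusted p = 0.00753). Cpt1a, the form of liver and of many other tissues, had 15.4, 16.7 and 14.3 CPM in mKO libraries, against 9.35, 10.6 and 10.5 CPM in WT libraries (log2 0.61, SE 0.13, edgeR adjusted p = 0.00268). Neither gene had overlapping groups, but Cpt1b was not called with library totals (log2 -0.09, edgeR adjusted p = 0.624). The ratio of Cpt1a to Cpt1b per exon length was 0.499, 0.559 and 0.533 in mKO libraries, against 0.243, 0.203 and 0.280 in WT libraries. The annotated exons of Chkb on the same strand share 81.4% of the exon length of Cpt1b. How the counting treated reads in that overlap was not stated, so the level of Cpt1b is uncertain.

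Cpt2, which rebuilds acyl-CoA inside the mitochondrion, was lower (18.1 ± 0.318 CPM in mKO and 30.3 ± 6.92 CPM in WT, SD, n = 3 each; log2 -0.74, SE 0.15). Crat, carnitine acetyltransferase, was the most abundant of the step per exon length and had 129.9, 121.5 and 139 CPM in mKO libraries, against 162, 186 and 148 CPM in WT libraries (log2 -0.35, SE 0.12, edgeR adjusted p = 0.0335). Its call was fragile, since it ended when any library but WT replicate 3 was left out (edgeR adjusted p from 0.0593 to 0.116), with the replicate number as a block (adjusted p = 0.0711) and with library totals, where its direction turned (log2 0.12).

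Malonyl-CoA is made and removed by enzymes of this list. Mlycd, malonyl-CoA decarboxylase, had 46.1, 29.4 and 28.3 CPM in mKO libraries, against 73.7, 69.6 and 75.7 CPM in WT libraries, with no overlap (2.11-fold lower, log2 -1.08, SE 0.17, edgeR adjusted p = 0.000291). Acacb, the acetyl-CoA carboxylase of the outer mitochondrial membrane, had 95.7, 96.1 and 91.5 CPM in mKO libraries, against 122.5, 145 and 89.6 CPM in WT libraries (log2 -0.33, SE 0.15, edgeR adjusted p = 0.103). WT replicate 3 put the groups of Acacb in overlap, and without it the gene was called lower (log2 -0.51, edgeR adjusted p = 0.0101). The ratio of Mlycd to Acacb per exon length was 1.56, 0.994 and 1.01 in mKO libraries, against 1.95, 1.56 and 2.74 in WT libraries, and these groups overlapped.

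The beta-oxidation cycle fell as a whole, with 12 of 12 genes called lower and no groups in overlap. Log2 fold changes ran from -1.40 to -0.48 with a median of -0.98, and mKO means were between 37.9% and 71.9% of WT means. The cycle's summed level was 1458 to 1707 CPM in mKO libraries and 2620 to 3641 CPM in WT libraries. With library totals 9 of the 12 were still called lower, and those no longer called were Acadl, Acadvl and Echs1.

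The acyl-CoA dehydrogenases open each turn and differ in the chain length they prefer, and all 4 genes were lower. Acadvl acts on very long chains and was the most abundant gene of the cycle per exon length over the 6 libraries. It had 307, 231 and 259 CPM in mKO libraries, against 342, 637 and 434 CPM in WT libraries (log2 -0.82, SE 0.19, edgeR adjusted p = 0.00482). WT replicate 1 was close to the mKO libraries and WT replicate 2 far above them, and annotated exons of Dvl2 on the opposite strand share 42.9% of the exon length of Acadvl. Acadm acts on medium chains and had 241, 209 and 239 CPM in mKO libraries, against 449, 718 and 613 CPM in WT libraries (2.58-fold lower, log2 -1.37, SE 0.16). Like Cd36, it was singled out after its values were seen. The ratio of Acadvl to Acadm per exon length was 1.86, 1.62 and 1.58 in mKO libraries, against 1.11, 1.29 and 1.03 in WT libraries. Acadl, for long chains, and Acads, for short chains, had log2 fold changes of -0.76 (SE 0.12) and -0.94 (SE 0.12).

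The later steps of the cycle were lower as well. Hadha and Hadhb encode the subunits of the mitochondrial trifunctional protein, which carries out the last 3 reactions on long chains. They lie head to head on chromosome 5 with 85 bases between them, and had log2 fold changes of -0.86 (SE 0.11) and -1.003 (SE 0.13). Their ratio per exon length was 0.493, 0.591 and 0.565 in mKO libraries, against 0.540, 0.474 and 0.477 in WT libraries, with overlap. For shorter chains the second dehydrogenase Hadh (log2 -0.99, SE 0.13) and the thiolase Acaa2 (log2 -0.96, SE 0.15) were lower, as was the short-chain hydratase Echs1 (log2 -0.48, SE 0.12), which had the smallest change of the 12. Echs1 made up 1.86, 2.15 and 1.87% of the cycle's summed RPKM (CPM per kilobase of annotated exon) in mKO libraries, against 1.52, 1.31 and 1.25% in WT libraries.

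The auxiliary enzymes of unsaturated fatty acids were among those with the largest changes in the cycle. Eci1, enoyl-CoA isomerase of the mitochondrion, had 49.4, 33.4 and 35.1 CPM in mKO libraries, against 86.0, 131 and 94.1 CPM in WT libraries (2.64-fold lower, log2 -1.40, SE 0.18, edgeR adjusted p = 7.87e-05). The second isomerase gene Eci2 (log2 -1.04, SE 0.10) and the dienoyl-CoA reductase gene Decr1 (log2 -1.13, SE 0.13) were lower too. In shares of the cycle's summed RPKM, Acadm (12.1% in mKO and 15.4% in WT on average) and Eci1 (7.38% and 9.72%) were lower in every mKO library than in any WT library, while Acadl (12.8% and 10.8%) and Echs1 were higher. The other 8 genes kept overlapping shares.

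Electron transfer out of the cycle was lower at each of its 3 genes. Etfb, the beta subunit of electron transfer flavoprotein, had 9.65, 8.69 and 9.72 CPM in mKO libraries, against 22.9, 43.6 and 25.5 CPM in WT libraries (3.28-fold lower, log2 -1.71, SE 0.21, edgeR adjusted p = 4.87e-05). Its partner Etfa, the alpha subunit, had 92.0, 87.5 and 87.0 CPM in mKO libraries, against 116, 118 and 121 CPM in WT libraries (1.34-fold lower, log2 -0.42, SE 0.10, edgeR adjusted p = 0.00604). For both genes every mKO library lay below every WT library, but the small change of Etfa turned with library totals (log2 0.05, edgeR adjusted p = 0.701). The subunits form a dimer of 1 copy each, whereas their mRNA ratio, Etfa to Etfb per exon length, was 6.05, 6.38 and 5.68 in mKO libraries, against 3.22, 1.72 and 3.02 in WT libraries. Annotated exons of the little-counted gene Gm45233 share 53.0% of the exon length of Etfb, so its level is uncertain. Etfdh, the dehydrogenase that passes the electrons to ubiquinone, was 2.03-fold lower (100.2 ± 12.7 CPM in mKO and 204 ± 57.5 CPM in WT, SD, n = 3 each).

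The uncoupling protein genes, which lie 6904 bases apart on chromosome 7 in the same direction, moved in opposite directions. Ucp3, the form of skeletal muscle, which fasting and fatty acids are known to raise, had 29.5, 17.6 and 17.5 CPM in mKO libraries, against 35.4, 53.6 and 37.3 CPM in WT libraries (log2 -0.97, SE 0.21, edgeR adjusted p = 0.00281). Ucp2, the form of many tissues including immune cells, had 11.8, 10.4 and 13.1 CPM in mKO libraries, against 3.44, 2.91 and 2.29 CPM in WT libraries (4.09-fold higher, log2 2.03, SE 0.18, edgeR adjusted p = 5.09e-06). No groups overlapped, and Ucp2 had the largest rise of the 42 genes. The ratio of Ucp2 to Ucp3 per exon length was 0.179, 0.265 and 0.336 in mKO libraries, against 0.0436, 0.0244 and 0.0276 in WT libraries. Macrophages are among the cells known to express Ucp2, and their markers were at 273% of WT in sum in the same libraries, and their part in this rise was not tested.

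Over 13 pairs of genes set side by side within each library, 10 had ratios that did not overlap between groups. The share over other gene pairs was not computed, and 49.3% of single genes tested had groups without overlap. The pairs were chosen with earlier results known. Angptl4 to Lpl, Ucp2 to Ucp3, Plin2 to Plin5 and Cpt1a to Cpt1b join genes called in opposite directions, so their separation adds no support. The largest differences were those of Angptl4 to Lpl (log2 3.89), Ucp2 to Ucp3 (log2 3.03) and Plin2 to Plin5 (log2 2.44). Each of the 10 had an exact two-sided permutation p of 0.1, the smallest that 3 against 3 libraries can give, and 0.13 after adjustment over the 13 pairs. The pairs that overlapped were Acsl3 to Acsl1, Mlycd to Acacb and Hadha to Hadhb. RPKM uses the length of all annotated exons of a gene, so levels compared between genes also depend on how many rarely used exons are annotated.

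**Figure D3:**
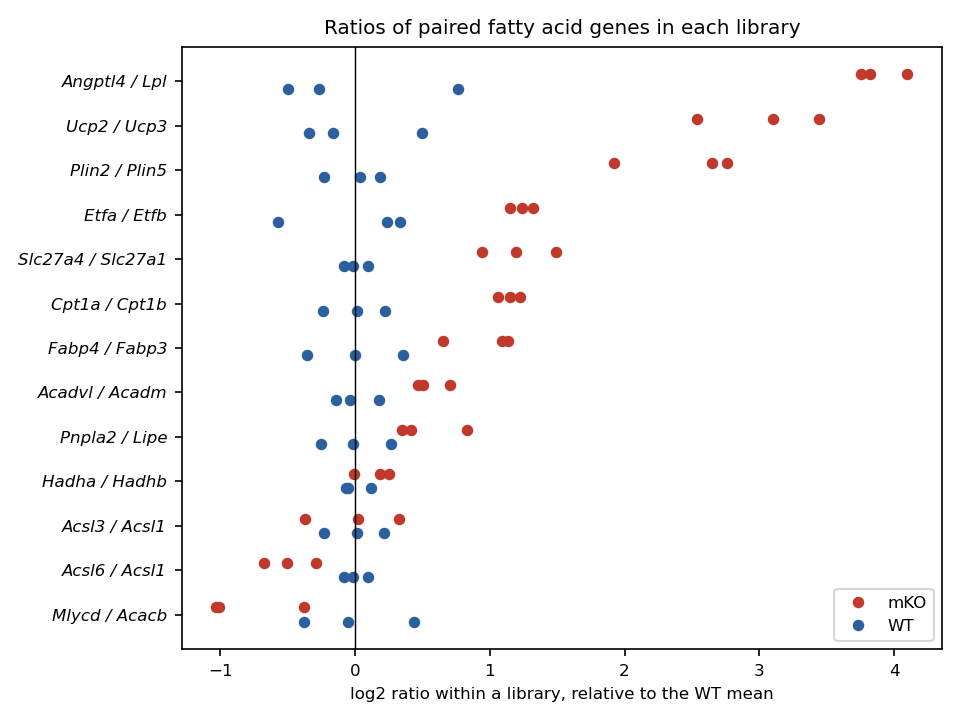
Log2 ratio of 13 gene pairs within each library, per exon length and relative to the mean of the WT libraries; each point is 1 library, mKO above WT in each row. The groups separate for 10 pairs, most widely for Angptl4 to Lpl, and overlap for Hadha to Hadhb, Acsl3 to Acsl1 and Mlycd to Acacb.

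Other transcripts of muscle fell in the same libraries. Of 10 mature fibre markers, 9 were called lower, and their summed level was 42.8% of WT. Of 10 oxidative fibre markers 4 were lower and 3 higher, with a summed level of 42.7% of WT but a median log2 fold change of 0.54. Of 10 markers of fibro-adipogenic progenitors 2 were higher and none lower, where 18.2% of all genes tested were called higher. They were Col3a1 and Col1a1, the latter with overlapping groups, and a count so near that share is not a result about these cells. Of 10 genes for mitochondrial structure and import, citrate synthase among them, 7 were lower and none higher, with sums of 2263 to 2549 CPM in mKO libraries and 3663 to 3906 CPM in WT libraries (64.2% of WT). The steps could be set against these sums without any scaling factor. Counts of the beta-oxidation cycle relative to the mitochondrial list were 0.670, 0.644 and 0.632 in mKO libraries, against 0.715, 0.954 and 0.811 in WT libraries, with no overlap. Counts of the uptake step relative to the same list were 0.379, 0.321 and 0.322 in mKO libraries, against 0.625, 0.659 and 0.710 in WT libraries. The lipid droplet step, at 133% of WT, and the synthetases and thioesterases, at 116% of WT, were higher relative to that list in every mKO library than in any WT library. The carnitine, electron transfer and uncoupling steps overlapped. Such sums follow the most counted genes, which were Plin4 for the droplet step, Acsl1 for the synthetases and thioesterases, and Vdac1 for the mitochondrial list. Taken gene by gene, the median log2 fold change was -0.15 for the droplet step and -0.75 for the synthetases and thioesterases. It was -0.50 for the mitochondrial list, so the synthetases and thioesterases were not spared by that measure. Relative to the mature fibre list, the cycle overlapped (0.0286, 0.0252 and 0.0235 in mKO libraries, 0.0186, 0.0238 and 0.0232 in WT libraries), and the uptake step did not, by a narrow margin (0.01619, 0.0126 and 0.012 in mKO libraries, 0.01622, 0.0164 and 0.0203 in WT libraries). Each of the other 5 steps took more counts relative to mature fibre markers in every mKO library than in any WT library, for example 0.00525, 0.00464 and 0.00431 in mKO libraries for the lipid droplet step, against 0.00205, 0.00268 and 0.00236 in WT libraries. Myh4 (log2 -1.57) and Ckm (log2 -1.38) had the most counts of the mature fibre list in every library, so ratios to that list depend largely on their fall. The part of these markers in the results was not tested. As a share of all counts, the 42 genes took 0.479, 0.394 and 0.414% in mKO libraries, against 0.555, 0.690 and 0.638% in WT libraries.

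**Figure D4:**
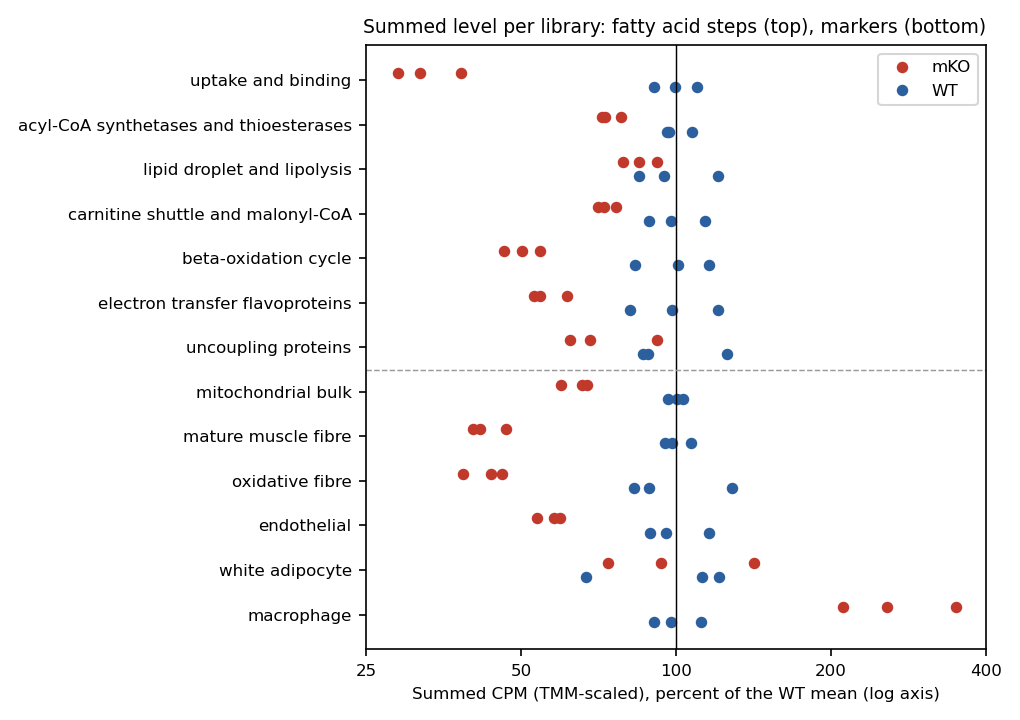
Summed CPM per library of each fatty acid step (above the dashed line) and of marker lists (below it), as percent of the WT mean on a log axis; each point is 1 library, mKO above WT in each row. Uptake and binding genes lie lowest among the steps, at 32.9% of WT on average, and macrophage markers lie at 273%.

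Of 56 genes of the pathway outside the 42, 29 were lower and 2 higher, with a median log2 fold change of -0.49, where 18.9% of all genes tested were called lower and 18.2% higher. With library totals 13 were lower and 7 higher, where 6.75% of all genes tested were called lower and 49% higher. In uptake and entry, 5 of 9 were lower and none higher, led by lowest p by Gpihbp1, which anchors lipoprotein lipase to the capillary (9.46 CPM in mKO and 20.4 CPM in WT on average, log2 -1.11). The carnitine transporter genes Slc22a5 (log2 -1.03) and Slc25a20 (log2 -0.93) of this list were also lower. The next lists carry labels of a site in the cell, which was not checked for each member, Acad11 and Nudt7 among them. In the list labelled other mitochondrial oxidation, 6 of 9 were lower, led by the thiolase gene Acat1 (218 and 509.7 CPM, log2 -1.23). The thioesterase gene Acot9 of this list was higher (log2 0.62). In the list labelled peroxisomal oxidation, 5 of 10 were lower and none higher, led by Ech1 (160.2 and 363 CPM, log2 -1.18).

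Storage genes outside the 42 were lower in part, and calls among synthesis genes were few. In triglyceride synthesis and droplet coat, 8 of 13 were lower and none higher, led by Fitm1, a muscle gene of droplet formation (90.7 CPM in mKO and 208 CPM in WT, log2 -1.20). The list includes the partners of the lipase encoded by Pnpla2: its activator Abhd5 (log2 -0.55) and its inhibitor G0s2 (log2 -1.23) were both lower. WT replicate 2 carried much of the size of the fall of G0s2, which was -0.63 without it and still called, and Abhd5 was not called with library totals (log2 -0.09, edgeR adjusted p = 0.474). In fatty acid synthesis and desaturation, 3 of 10 were lower, led by the desaturase gene Scd1 (68.1 and 156 CPM, log2 -1.20), and the elongase gene Elovl1 was higher (log2 0.66, edgeR adjusted p = 0.0403). Over all genes tested 18.9% were called lower and 18.2% higher, so the counts in this short list set it little apart. The call for Elovl1 ended without WT replicate 1, WT replicate 3, mKO replicate 1 or mKO replicate 3 (edgeR adjusted p from 0.0898 to 0.154) and with a replicate block (0.0745). In ketone use and fuel switch, 2 of 5 were lower, led by Oxct1, the ketone-activating transferase (363 and 829 CPM, log2 -1.19). Pdk4, the kinase that spares glucose when fat is burned, had 440.3, 123 and 193 CPM in mKO libraries, against 345, 399 and 376 CPM in WT libraries, and was not called (log2 -0.57, edgeR adjusted p = 0.194). mKO replicate 1 lay above every WT library and the other mKO libraries below them. Without mKO replicate 1 Pdk4 was called lower (log2 -1.24, edgeR adjusted p = 0.000457), without mKO replicate 2 its log2 value was -0.23 and not called, and without the filter on low counts it was called (adjusted p = 7.98e-05).

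**Figure D5:**
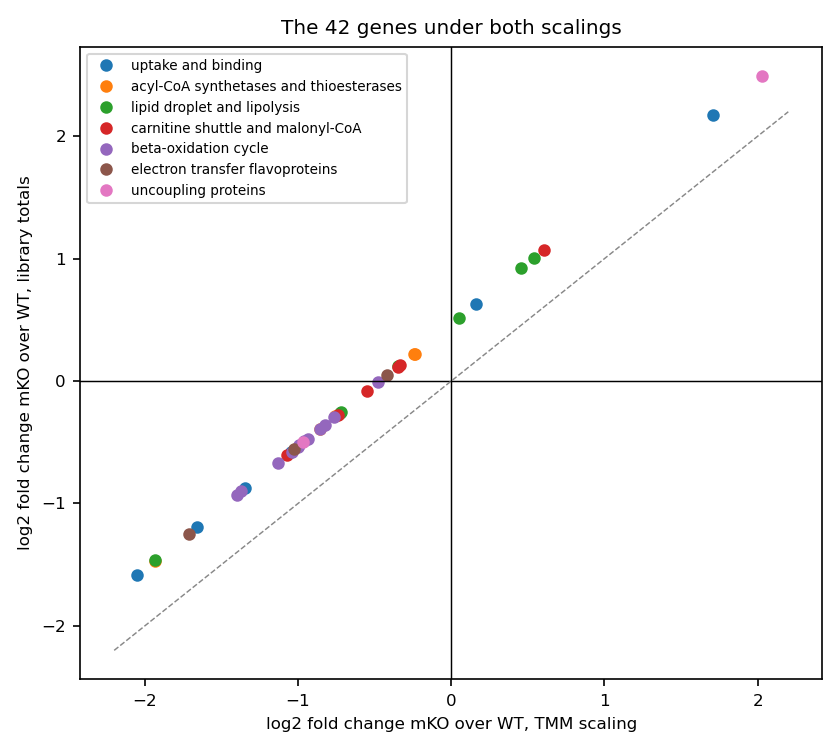
Log2 fold change, mKO over WT, of the 42 genes with TMM factors (horizontal) and with library totals (vertical); the dashed line marks equal values and colours mark the steps. All genes lie above the line by about the same amount, 19 are called lower and 7 higher with library totals, and 6 genes with small falls change sign.

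Because most members fell together, their promoters were searched for the letters that nuclear receptors of the PPAR and ERR families are known to bind. RefSeq promoter windows (GRCm38.p6, 250 bases before to 50 after the annotated start) were at hand for 34 of the 42 genes. The hexamer AGGTCA, on either strand, was found for 10 of the 34 (29.4%), against 18.1% of 27025 genes with a window. Of these 10 genes 7 were lower, 2 higher and 1 not called, while the 34 had 24 lower, 4 higher and 6 not called. The longer form AAGGTCA, which contains the hexamer, was found for Acacb, Acadm and Acsl6 (8.82%, against 5.38% of genes), and the direct repeat DR1, which is the hexamer followed by any base and the hexamer again, for none of the 34 and for 13 of all genes. The windows of 5 genes are shown for contrast: genes that fell (Acadm, Ucp3, Plin5) and genes that rose (Cpt1a, Plin2) hold the same letters. Each reads 5′ to 3′ on the gene's own strand, with the hexamer or its reverse complement TGACCT in capitals. A match is a description of the letters and does not show that a factor binds there.
Acadm: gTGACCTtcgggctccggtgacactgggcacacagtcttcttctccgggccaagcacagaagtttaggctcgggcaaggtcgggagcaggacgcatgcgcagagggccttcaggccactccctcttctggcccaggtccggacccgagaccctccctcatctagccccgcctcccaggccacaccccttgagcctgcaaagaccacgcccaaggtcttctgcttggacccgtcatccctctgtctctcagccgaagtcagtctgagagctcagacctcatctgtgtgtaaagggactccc
Ucp3: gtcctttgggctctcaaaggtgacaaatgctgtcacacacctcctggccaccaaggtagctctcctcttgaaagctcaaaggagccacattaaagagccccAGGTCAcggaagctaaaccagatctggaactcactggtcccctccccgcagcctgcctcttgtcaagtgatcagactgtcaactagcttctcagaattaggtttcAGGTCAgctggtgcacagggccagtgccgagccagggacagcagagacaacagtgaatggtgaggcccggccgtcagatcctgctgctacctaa
Plin5: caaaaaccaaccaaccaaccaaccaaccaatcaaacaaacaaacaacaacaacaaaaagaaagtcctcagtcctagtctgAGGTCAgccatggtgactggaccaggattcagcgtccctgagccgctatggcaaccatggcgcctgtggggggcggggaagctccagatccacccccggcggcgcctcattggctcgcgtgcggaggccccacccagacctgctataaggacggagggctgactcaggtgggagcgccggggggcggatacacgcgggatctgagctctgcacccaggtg
Cpt1a: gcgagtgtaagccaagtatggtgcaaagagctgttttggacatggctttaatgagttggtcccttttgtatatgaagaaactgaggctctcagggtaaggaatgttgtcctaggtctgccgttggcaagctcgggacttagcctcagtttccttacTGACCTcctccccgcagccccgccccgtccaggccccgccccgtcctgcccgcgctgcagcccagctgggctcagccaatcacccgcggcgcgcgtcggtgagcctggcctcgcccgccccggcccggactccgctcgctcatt
Plin2: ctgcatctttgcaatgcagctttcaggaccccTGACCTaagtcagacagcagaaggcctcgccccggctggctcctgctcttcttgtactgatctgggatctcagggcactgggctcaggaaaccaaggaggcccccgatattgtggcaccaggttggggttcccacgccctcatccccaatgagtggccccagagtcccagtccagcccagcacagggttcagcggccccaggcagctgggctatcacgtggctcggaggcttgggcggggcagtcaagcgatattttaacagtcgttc
The windows are chr3:153944594-153944893 on the minus strand for Acadm, chr7:100472741-100473040 on the plus strand for Ucp3, chr17:56117499-56117798 on the minus strand for Plin5 (the upstream of its pair of windows), chr19:3323051-3323350 on the plus strand for Cpt1a and chr4:86670010-86670309 on the minus strand for Plin2. The window of Ucp3 holds the hexamer at 2 places, which begin 149 and 44 bases before the start, and each of the other windows holds it once.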

How the data were processed

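Per the labels' protocols, Trizol served for RNA extraction and the NEBNext Ultra RNA kit for the libraries. The tools, per the submitters' processing notes, included featureCounts (Subread 1.5.2), STAR 2.5.2b and Trimmomatic 0.36, with the GRCm38 build. The deposited values are raw counts per Ensembl gene, summed over the listed exons per the file headers, 1 table per library. The sources used here do not give the strand setting, pair counting or multimapping, so counts of overlapping genes and close copies are uncertain. Symbols matched 48970 of 49315 genes.

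Groups come from the sample titles. All genes passing the default edgeR filter by group (16650) entered an edgeR 4.0.16 model (R 4.3.3) that used TMM factors, with group as the only term, the quasi-likelihood test and Benjamini-Hochberg adjustment at 0.05. SE of a log2 fold change was derived from the test statistic. CPM and RPKM use TMM-scaled library sizes. The biological coefficient of variation was 16.1%. Replicates differed beyond sampling noise (chi-square per degree of freedom 20.9 to 57.7 among genes whose counts in both libraries reached 20 in sum), so none was a copy. The edgeR fit was also run on simulated counts with few genes changed, which does not test the choice of scaling.

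The members, lists, pairs and rule for named genes were chosen with earlier results of these data known. The rule gives values per library for the member of each step with the largest called change in each direction, the most abundant per exon length, and all members higher or not called. In other lists it names the lowest p in each direction. Other genes with values were chosen after these were seen. The alternatives tried were limma-voom (limma 3.58.1), DESeq2 1.42.0, other scaling factors, no low-count filter, a replicate block and leaving out each library.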

Additional observations from a re-analysis of the deposited data

How the results depend on the processing

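Of the 42 genes, 22 kept their direction and their side of the threshold under all 13 alternatives, among them Lpl, Cd36, Fabp3, Plin5, Acadm, Etfb, Cpt1a, Angptl4 and Ucp2. Library totals made the largest difference. With them 9283 genes were called in place of 6166, 1124 lower and 8159 higher, and 19 members were lower in place of 31. Members that then changed direction had log2 values of 0.225 (Acsl1), 0.22 (Acsl3), 0.12 (Plin4), 0.12 (Crat), 0.13 (Acacb) and 0.0492 (Etfa). DESeq2, limma-voom, DESeq2 size factors, TMM factors without the 10 most abundant and mitochondrial genes, and no low-count filter gave 30 to 33 members lower and 5 higher. Leaving out 1 library gave 28 to 32 lower and 3 to 5 higher. The sign of Lipe turned without WT replicate 3, mKO replicate 2 or mKO replicate 3, and its log2 value ran from -0.0569 to 0.156 as single libraries were left out. The ratio of Acsl3 to Acsl1 turned without WT replicate 3 (0.10) or mKO replicate 1, and ran from -0.174 to 0.175. Libraries with the same replicate number did not deviate together (correlations 0.018, -0.002 and 0.022), which gave no sign of pairing. With 3 libraries per group, each centred on its group mean, such values cannot exclude it. With the replicate number as a block, 29 members were lower and 5 higher, Acot1 (adjusted p = 0.0591) and Crat no longer called. Low counts limit Acot1, and 3 libraries per group limit the ratios.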
